A study of Schizosaccharomyces pombe with 3 samples.

Results

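The genes described here encode the Hsp70 and Hsp90 chaperones of fission yeast, Schizosaccharomyces pombe, together with a J-protein, an adaptor protein and heat-shock proteins. They were chosen by symbol from a list of 10 names, ssa1, ssa2, sks2, ssc1, hsp90, hsp104, hsp16, hsp9, mas5 and sti1, where hsp90 is the gene also called swo1. The probe annotation named 9 of the 10, each with 1 probe set, among 2896 named fission yeast genes. The disaggregase gene hsp104 was not analysed here, because none of the named probe sets carried its symbol or gene identifier. Total RNA was measured on 3 Affymetrix arrays, and all 3 samples formed 1 wild type group. The strain was h+ and carried leu1-32, ade6-210 and ura4-DS/E, and was grown at 30 degrees in YEA, a rich liquid medium. The labels name no heat shock or other stress, no second condition, and no separate cultures for the arrays, so values after ± (SD of log2 signal, n = 3) may reflect technical spread only.

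Hsp70 proteins bind short hydrophobic stretches of unfolded proteins and release them through cycles of ATP hydrolysis, which J-proteins stimulate and nucleotide exchange factors reset. Hsp90 acts later, on nearly folded clients such as protein kinases, and Sti1 bridges the chaperones by holding both. Small heat-shock proteins bind unfolding proteins without ATP, and many chaperone genes are induced through the heat shock factor, Hsf1. Some of these genes serve growing cells at all times, here called constitutive (ssa2, sks2, ssc1, hsp90, mas5 and sti1), whereas others are best known for their induction by heat or other stress, here called stress-induced (ssa1, hsp16, hsp104 and hsp9). The classes come from general knowledge of these genes, not from these arrays, and hsp90, mas5 and sti1 are also raised further by heat.

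The values are linear signal intensities, deposited by the authors and scaled to a common mean per array, or their log2. Probe brightness depends on probe sequence, so an order of genes by signal mixes transcript level with probe brightness and is given as a description, without a test. Bulk RNA from a culture does not show whether a level comes from all cells or from some of them. The background limit on each array was the 95th percentile over 2601 probe sets named for another yeast, which in log2 units came to 0.27 for array 1, 0.31 for array 2 and 0.24 for array 3.

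All 9 measured genes lay far above the background, and 7 of them were among the brighter genes on the arrays. By limma, 9 of 9 passed the test against the background limit, where 99.9% of all genes tested passed it. The smallest margin was that of ssa1, 6.51 above the limit on the log2 scale (SE 0.0489, limma adjusted p = 5.04e-13), and the largest was that of sks2, 10.32 above it (SE 0.0502, limma adjusted p = 1.2e-13). The limit of each array was taken as fixed. Like the SDs, these SEs and p may reflect technical spread between the arrays only. In the top 25% of mean signal, which holds 25.0% of genes by construction and began at a log2 signal of 9.10, were 7 of the 9. The median of the 9 means was 10.05, against 8.22 over all genes. The exceptions were hsp16, close to the median gene, and ssa1, in the bottom 25%.

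**Figure D1:**
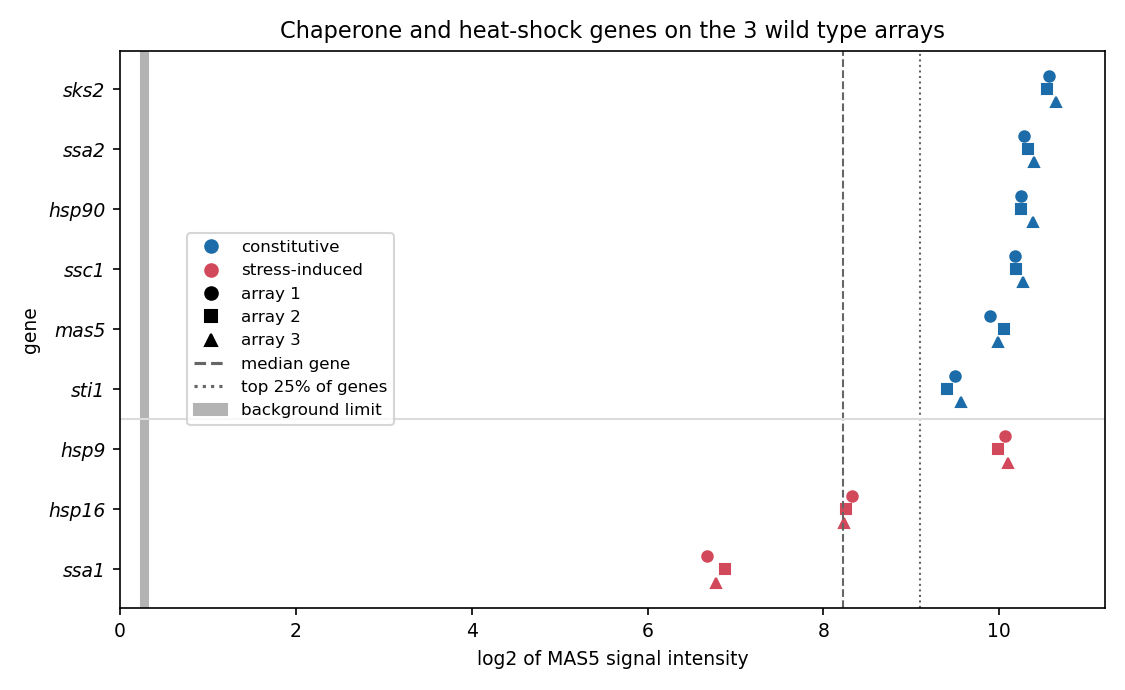
Each point is the log2 of the MAS5 signal intensity of 1 gene on 1 array (circle, square and triangle for arrays 1, 2 and 3), with constitutive genes in blue above and stress-induced genes in red below. The 6 constitutive genes and hsp9 lie right of the dotted line at 9.10, where the top 25% of genes begins, while hsp16 lies at the dashed line of the median gene, 8.22, and ssa1 left of it. The gray band marks the background limits.

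Among the Hsp70 genes, sks2 was the brightest member. It encodes the counterpart of budding yeast Ssb, an Hsp70 that binds nascent chains at the ribosome, and its signals were 1521, 1498 and 1604 on arrays 1, 2 and 3, a log2 mean of 10.59 ± 0.05. It stood 11th from the top among the 2896 genes. The cytosolic Ssa-type Hsp70 gene ssa2 gave 1246, 1289 and 1352, or 10.34 ± 0.06, at percentile 98.1 of all genes. The gene of the mitochondrial matrix Hsp70, ssc1, whose product helps to pull proteins across the inner membrane, gave 1161, 1167 and 1235, or 10.21 ± 0.05, at percentile 96.7. All 3 genes were highest on array 3, and their arrays differed by at most 1.08-fold.

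The other cytosolic Ssa-type gene, ssa1, was the dimmest member. Its signals were 103, 118 and 110, a log2 mean of 6.78 ± 0.10, at percentile 20.1. It stood below the median gene (member minus median, -1.44 on the log2 scale), lowest on array 1 and highest on array 2. The log2 signal of ssa2 exceeded that of ssa1 by 3.60, 3.45 and 3.62 on the 3 arrays, a mean difference of 3.56 ± 0.09, or an 11.8-fold higher signal. The values of these paralogues on the 3 arrays did not overlap. Neither gene was among the 20 probe sets that the annotation assigned to several genes. The probe sequences were not used here, so how far the ssa1 probe set also reports transcripts of ssa2 was not tested.

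The members hsp90, mas5 and sti1 were bright as well. The single cytosolic Hsp90 gene of fission yeast, hsp90, gave 1217, 1220 and 1334, or 10.29 ± 0.08, at percentile 97.7. It was nearly level on arrays 1 and 2 and highest on array 3. The J-protein gene mas5, the counterpart of budding yeast YDJ1, gave 956, 1059 and 1017, or 9.98 ± 0.07, at percentile 93.5. Unlike hsp90 it was highest on array 2 and lowest on array 1, with a 1.11-fold range. The adaptor gene sti1 gave 722, 679 and 754, or 9.49 ± 0.08, at percentile 84.3. It was the dimmest of the constitutive genes, and its 3 values overlapped those of no other member.

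The heat-shock genes hsp9 and hsp16 differed widely from each other. The gene hsp9, whose product resembles Hsp12 of budding yeast, gave 1074, 1012 and 1096, or 10.05 ± 0.06, at percentile 94.6. It thus lay among the constitutive genes, although it was placed in the stress-induced class. The alpha-crystallin type gene hsp16 gave 321, 305 and 302, or 8.27 ± 0.05, at percentile 51.1. The log2 signal of hsp9 exceeded that of hsp16 by 1.74, 1.73 and 1.86 on the 3 arrays, a mean difference of 1.78 ± 0.07. These genes are both strongly induced by stress, and their signals without a labelled stress were 3.43-fold apart.

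From the brightest to the dimmest, the order of mean signal was sks2, ssa2, hsp90, ssc1, hsp9, mas5, sti1, hsp16 and ssa1. Of the 8 gaps between neighbours in this order, 5 were wider than the spread, in that the 3 values of the upper gene all lay above those of the lower. The values overlapped for ssa2 and hsp90, whose means were 0.04 apart, for hsp90 and ssc1, 0.08 apart, and for hsp9 and mas5, 0.07 apart. Within each array ssa2 lay above hsp90 and hsp90 above ssc1, but hsp9 lay above mas5 on 2 of the 3 arrays. The widest gaps were at the lower end. There, sti1 lay 1.21 ± 0.09 above hsp16, and hsp16 lay 1.49 ± 0.14 above ssa1.

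The constitutive class was brighter on average than the measured stress-induced genes, but the stress-induced class was not uniform. The mean log2 signal was 10.11, 10.13 and 10.21 over the 6 constitutive genes on arrays 1, 2 and 3, against 8.36, 8.37 and 8.37 over the 3 stress-induced genes. The difference, constitutive minus stress-induced, was 1.75, 1.76 and 1.84, a mean of 1.78 ± 0.05, or 3.44-fold. Genes of a class share arrays and are not replicates, so the difference carries no p. In 16 of the 18 pairs of a constitutive and a stress-induced gene, the constitutive gene was higher on all 3 arrays. Both exceptions involved hsp9, which lay above sti1 on all 3 arrays, by 0.56 ± 0.02, and above mas5 on 2. The pairs reuse the same 9 genes, so the count carries no test. The genes ssa1 and hsp16 lay at percentiles 20.1 and 51.1 of all genes. Every gene in the top 25% of mean signal was brighter than both by mean signal. Pairs with ssa1 or hsp16 therefore do not set the constitutive genes apart from other bright genes. The size of the difference rested on single genes. Without ssa1 it was 0.99, and without hsp9, an alternative chosen after its level was seen, it was 2.62.

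Other chaperone and stress genes, from lists chosen with earlier results of these data known, gave a setting for these levels. All of their measured genes passed the limma test against background, as 99.9% of genes did. The cytosolic chaperonin CCT, a ring that folds actin and tubulin, had 8 of 8 genes measured, and all 8 were in the top 25%, from cct8 at 10.06 ± 0.03 and cct3 at 10.03 ± 0.03 to cct1 at 9.54 ± 0.01 and cct5 at 9.53 ± 0.02. The CCT genes thus spanned 0.53 on the log2 scale in these data, while the 9 Hsp70, Hsp90 and heat-shock genes spanned 3.81. The 6 constitutive genes alone spanned 1.10. The other chaperone lists spanned from 0.60 (ER chaperones) to 3.37 (Hsp70 partners), so a wide span was not particular to the members. Of 8 names listed as Hsp90 cochaperones 5 matched a measured gene, and 3 of these were in the top 25%. The cyclophilin gene wis2 gave 10.39 ± 0.03 and the p23 gene wos2 gave 10.34 ± 0.06, near hsp90 itself. The dimmest, git7 and cns1, gave 8.69 ± 0.08 and 8.33 ± 0.03.

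Partners of Hsp70 ranged widely. Of 7 names listed as partners 4 matched a measured gene, and 2 of these were in the top 25%. They were the Hsp110-type gene pss1 at 10.10 ± 0.07 and the BAG-domain gene bag101 at 9.23 ± 0.07. The mitochondrial exchange factor gene mge1 gave 8.48 ± 0.01 and bag102 gave 6.73 ± 0.09, close to ssa1. Of 11 listed J-proteins besides mas5, 5 were measured and 2 were in the top 25%. The gene of the ribosome-bound J-protein, zuo1, gave 9.99 ± 0.10, close to mas5, and the mitochondrial mdj1 gave 9.19 ± 0.04. At the lower end psi1 gave 8.05 ± 0.03 and cwf23, whose product associates with the spliceosome, gave 6.90 ± 0.22. The mitochondrial chaperonin genes hsp10 and mcp60 gave 10.14 ± 0.03 and 9.40 ± 0.05, and the ER chaperone genes cnx1, bip1 and pdi3 gave 9.72 ± 0.04, 9.16 ± 0.01 and 9.12 ± 0.09.

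**Figure D2:**
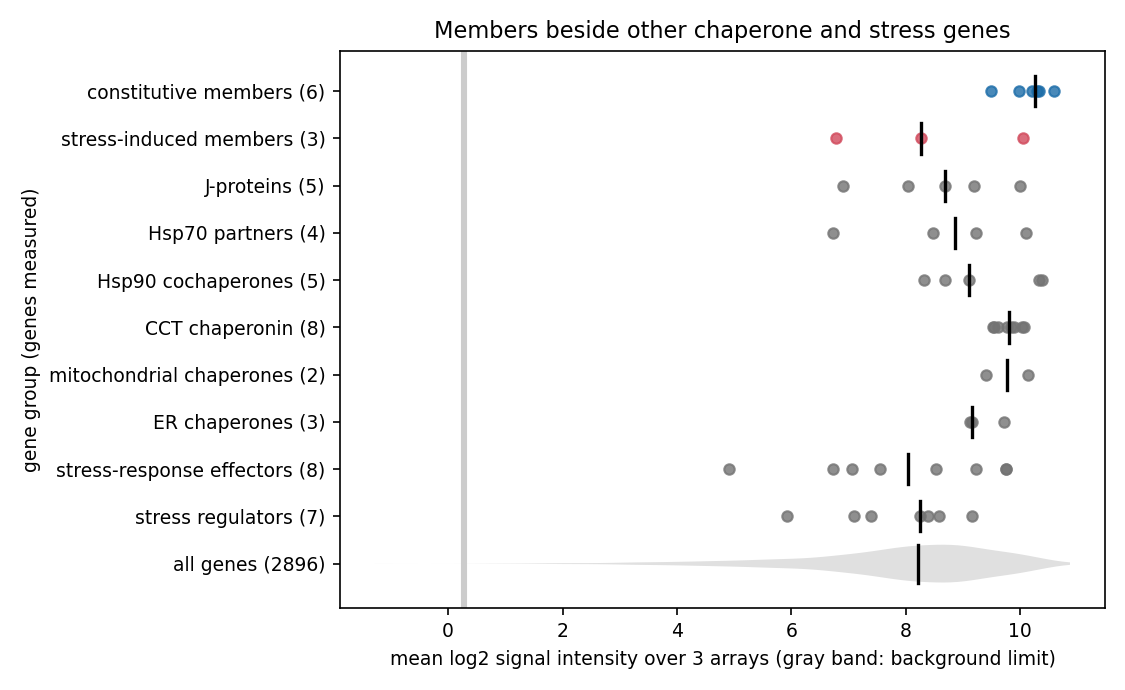
Each point is the mean log2 signal intensity of 1 gene over the 3 arrays, black bars are group medians, and the gray shape is the distribution over all 2896 genes, of which the median was 8.22. The 6 constitutive genes (median 10.25) lie close together at the bright end, as do the 8 CCT genes (median 9.80), while the 3 stress-induced genes spread from 6.78 to 10.05.

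Stress-response genes outside the chaperones covered a wide range of signal, from 4.90 to 9.76. Of 15 listed effectors 8 were measured, of which 3 were in the top 25% and 3 in the bottom 25%. The list of 15 also held genes with heat-shock names, none of which was among the 8 measured. The glutathione peroxidase gene gpx1 gave 9.76 ± 0.02 and the polyubiquitin gene ubi4 gave 9.75 ± 0.08, near hsp9. The probe set of ubi4 is of a type that Affymetrix marks as possibly cross-hybridising, and other ubiquitin genes exist. The metallothionein gene zym1 gave 6.73 ± 0.03, near ssa1, and the phosphatase gene pyp2 gave 4.90 ± 0.09. The median of the effectors was 8.04, against 8.22 over all genes.

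The gene of the heat shock factor, hsf1, was near the median gene. Its signals were 337, 268 and 308, or 8.24 ± 0.17, at percentile 50.5, highest on array 1 and lowest on array 2. Its level was thus near that of hsp16. All 7 listed stress regulators were measured, and 1 was in the top 25%. This was the MAP kinase kinase gene wis1 at 9.16 ± 0.05, followed by the MAP kinase gene sty1 at 8.58 ± 0.03. The dimmest were mcs4 at 7.10 ± 0.09 and pcr1, which encodes the partner of the transcription factor Atf1, at 5.93 ± 0.05.

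Probe sets named for the same chaperones of the other yeast lay mostly below the background limit, as most probe sets of that yeast do by construction. Of 15 such names searched, 7 were in the annotation, with 8 probe sets. On all 3 arrays 7 of the 8 lay below the background limit. The exception was 1 of the 2 probe sets of SSB1, with log2 signals averaging 0.31 ± 0.51, above the limit on arrays 1 and 3. That limit is the 95th percentile of the 2601 probe sets of the other yeast, so 95% of them lie below it on each array. The count therefore does not measure cross-hybridisation. Among those 2601, the 8 ranged from percentile 2.5 (SSB2) to 98.0 (1 of the 2 probe sets of SSB1). The probe sets named SSA1, SSA2, SSC1 and STI1, which share their names with measured members, were among the 7, so no difference from the members is given. The probe set named HSP104 gave 0.736, 0.686 and 0.807, and says nothing of the fission yeast gene hsp104.

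On the deposited scaling, the brighter members varied more between arrays than the median gene of like brightness. The largest SD was that of ssa1, 0.0995, and the smallest was that of hsp16, 0.0468. Since the SD falls with brightness, each was set beside the median SD of genes in its own 25% band of level. In the brightest band that median was 0.0431, and all 7 members there had larger SDs, from 0.0497 for ssc1 to 0.0767 for sti1. Those of sti1, hsp90 and mas5 lay at percentiles 87.7, 87.0 and 86.5 of their band, but those of ssc1 and sks2 only at 59.5 and 63.3. Except for mas5, the 7 members were all highest on array 3, so their SDs do not count as separate observations. The SDs of hsp16 and ssa1 were below the medians of their bands, 0.0513 and 0.110. The SDs depended on the scaling. Under quantile normalization they were 0.0127 for ssc1, 0.0206 for sks2, 0.0291 for ssa2, 0.0355 for hsp90 and 0.0429 for hsp9. They were 0.0657 for sti1 and 0.0781 for mas5. Band medians were not computed under that scaling.

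**Figure D3:**
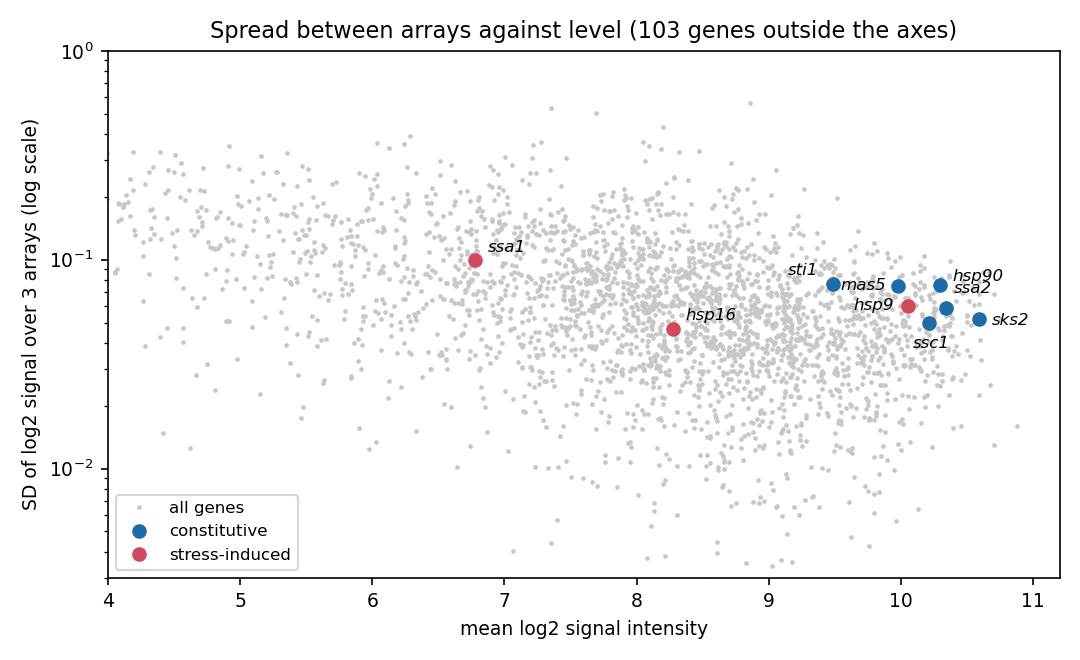
The SD of log2 signal as deposited over the 3 arrays (log axis) is plotted against the mean log2 signal for each gene. All genes are in gray, constitutive members in blue and stress-induced members in red. The 7 bright members have SDs between 0.0497 and 0.0767, above the median of 0.0431 in the brightest 25% of genes; 103 genes lie outside the axes.

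Most members were higher on array 3, as most bright genes were. Of the 9 members 7 were higher on array 3 than the mean of arrays 1 and 2, where 53.8% of all genes were, and where 73.8% of the genes in the top 25% of signal were. The members' median difference was 0.09 on the log2 scale, against 0.01 over all genes and 0.04 over the top 25%. It was 0.13 for hsp90, 0.11 for sti1, 0.09 for ssa2, sks2 and ssc1, and 0.07 for hsp9. For mas5 it was 0.02. The exceptions were hsp16, which lay 0.05 below the other arrays, and ssa1, within 0.01 of them. The count was 8 of 9 with median centring, under which ssa1 was higher on array 3 by 0.02, and where 61.0% of all genes and 80.7% of the top 25% were higher. It was 7 of 9 with quantile normalization, under which ssa1 was higher by 0.05 and mas5 lower by 0.03 (array 3 minus the others, -0.03). Under that scaling 56.7% of all genes and 54.7% of the top 25% were higher on array 3. Quantile normalization brought the members' median difference to 0.02. With 1 array on one side, no test of these differences was made, and the part of array-wide scaling in them was not tested.

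**Figure D4:**
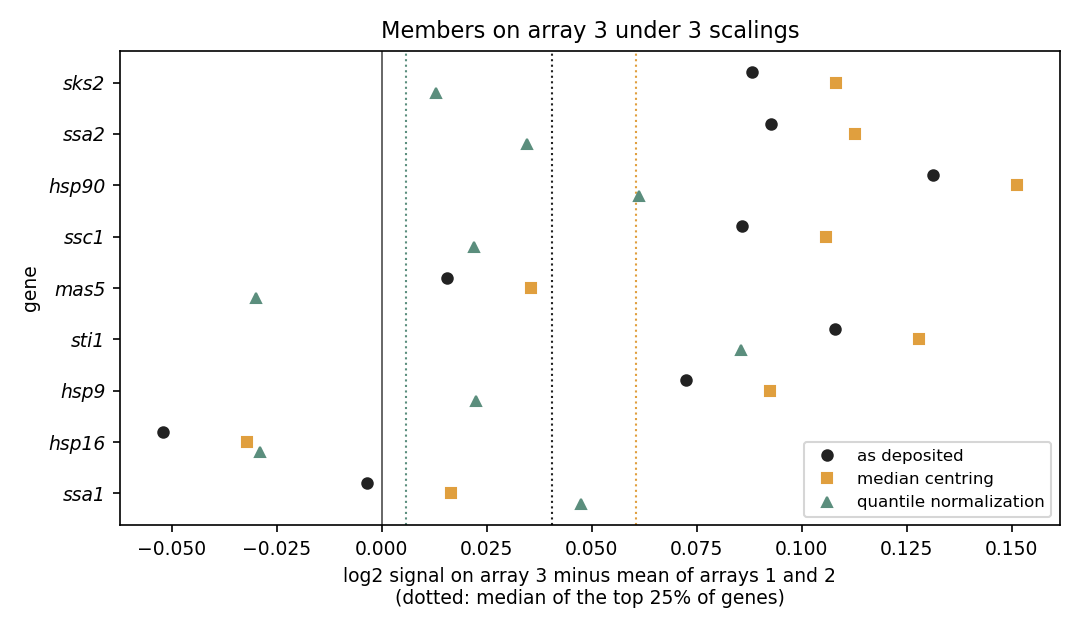
For each member, the log2 signal on array 3 minus the mean of arrays 1 and 2 is shown as deposited (circle), after median centring (square) and after quantile normalization (triangle), and dotted lines mark the median of the top 25% of genes under each. As deposited, 7 of 9 members lie right of 0; with quantile normalization most move closer to 0, mas5 falls left of it and ssa1 right of it.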

How the data were processed

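Total RNA of 3 wild type samples was measured on 1 array each. The authors used MAS5, per the submitters' processing notes, and deposited 1 linear intensity for each probe set. Target value, scanner and filters are not given in the sources used here. Trimmed by 2% at both ends, the mean intensity was 150.0 for each array, so no scaling was added before log2 was taken, without a pseudocount. The probe annotation named the genes, updated by gene identifier with a table of assembly ASM294v3, which served for names only. Identifiers of 2914 probe sets matched, giving 2896 genes. Where a gene had several probe sets their log2 values were averaged, but each member had 1. Capitalised symbols with identifiers outside that table (2601 probe sets) were taken as another yeast's.

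For each gene, log2 signal minus the background limit of the same array was tested against 0 with limma 3.58.1 in R 4.3.3 (lmFit, eBayes, two-sided, Benjamini-Hochberg over 2896 genes, threshold 0.05), a fit tested on simulated data. Figures were drawn with matplotlib 3.10.9. The number of arrays limits the precision, and limma draws each gene's variance toward a common value. Genes named are all members, hsf1, the 2 highest and 2 lowest of each list, and the other yeast's probe sets named for the members' counterparts. The members and lists were chosen with earlier results of these data known. Alternatives were another pseudocount, median centring, quantile normalization, the highest probe set, each array left out, other background limits, a filter on dim genes and other class members.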

Additional observations from a re-analysis of the deposited data

How the results depend on the processing

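All 9 measured members were above the background limit under each of the 10 alternatives run, and the count over all genes lay between 2890 and 2895, against 2894 as reported. The median log2 signal of the members on an array, averaged over arrays, was 10.07 and stayed between 10.06 and 10.09. Of 63 levels of single members under the alternatives, 61 lay within 1 SD of the reported level, and the pseudocount of 16 moved the other two, ssa1 to 6.97 and hsp16 to 8.35. The difference of constitutive minus stress-induced genes, 1.78, was between 1.76 and 1.80 with 1 array left out. It was 1.71 with the pseudocount of 16, which compresses dim values, and 1.98 with class medians. It was 2.01 without hsp90, mas5 and sti1, 0.99 without ssa1, and 2.62 without hsp9, the last chosen after the data were seen. The direction was the same in each of these alternatives. No paired analysis was possible because there was only 1 group. The comparison of array 3 under 3 scalings was also added after the data were seen. Nearly all genes passed the background limit under each setting, so passing it sets the members apart from few genes. Since hsp104 was not analysed here and the 3 arrays hold 1 condition, what the classes can show is limited.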
